A study of Homo sapiens with 16 samples.

Results

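The genes described here are 10 genes of DNA end joining, chosen by name and found by their Ensembl identifiers among the 26410 genes of the deposited tables. They are XRCC5, XRCC6, PRKDC, DCLRE1C, XRCC4, NHEJ1 and LIG4 of the classical pathway, TP53BP1 and RIF1, which protect broken ends, and POLQ of an alternative pathway. All 10 had a value in each library, and 9 passed the filter on low values, while NHEJ1 did not. Their RNA was measured in SH-SY5Y cells, a human neuroblastoma line, as normalized CPM, which are read counts divided by the size of the library and adjusted by a factor the authors set for each library.

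The libraries were made from poly(A) RNA of 4 clones. KO11 and KO28 carry the label TRPM2 KO, and Scr13 and Scr16 received a scrambled guide. TRPM2 encodes a calcium-permeable channel that opens under oxidative stress. All 4 clones came from single cells, were co-transfected with a Cas9 guide vector and the same donor vector with GFP and puromycin resistance, and were grown in puromycin. Each clone was left untreated or kept for 24 h in doxorubicin, a topoisomerase poison that breaks DNA, with 2 replicates. The sample labels and the authors' paper give the dose as 0.3 µM and the series text gives 3 µM. This made 16 libraries, with 4 in each of the groups KO untreated, Scr untreated, KO with doxorubicin and Scr with doxorubicin. Reads on genes numbered 10481177 in the shallowest library and 25086085 in the deepest. Each genotype is represented by 2 clones, so p-values over 4 libraries measure the spread of libraries that partly share a clone, and the comparison was also made with reads summed per clone, 2 against 2.

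In classical non-homologous end joining, the Ku ring formed by the XRCC5 and XRCC6 proteins slides onto a broken end and recruits the kinase encoded by PRKDC. The nuclease Artemis, made from DCLRE1C, trims ends or opens hairpins. The scaffold proteins XRCC4 and NHEJ1 align the ends and DNA ligase IV, made from LIG4, seals them. The TP53BP1 and RIF1 proteins gather on chromatin at breaks and hold back resection, the chewing of ends that prepares them for homologous recombination. DNA polymerase theta, made from POLQ, joins ends that were already resected, using short stretches of matching bases. Doxorubicin causes breaks of the kind these proteins join.

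TRPM2 itself was read first, as a check of the labels. Its level without treatment was 1.93 and 2.23 normalized CPM in KO11, 1.41 and 2.19 in KO28, 0.118 and 0.115 in Scr13, and 0 in both Scr16 libraries. A floor of 3 reads corresponds to 0.118 to 0.285 normalized CPM, so the untreated Scr libraries lay at or under the floor. All KO libraries lay above them. No p-value is given for untreated cells, since TRPM2 passed the filter there only through the KO libraries. Nor is a fold change given, since with Scr at the floor its size would be set by the constant of 1 added before the log. After doxorubicin TRPM2 was at 1.22 and 1.83 normalized CPM in KO11, 1.37 and 0.658 in KO28, 0.0594 and 0.0631 in Scr13, and 1.33 and 0.390 in Scr16. The groups overlapped there (adjusted p = 0.249). Thus TRPM2 reads do not show a loss of the transcript in the libraries labelled KO, although reads alone do not show whether a transcript is intact. The authors' paper states that the DNA for the start of the protein was removed and the rest put out of frame. It also states that the KO and Scr cells were authenticated by RT-PCR and Western blotting. The name "KO" below is the label.

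The cells were also checked against markers. Of 12 markers of sympathetic neuroblasts, 11 passed the filter, and DBH, which makes noradrenaline, was the most abundant of them at 1204 to 2140 normalized CPM. TH, the first enzyme of catecholamine synthesis, was nearly absent, at 0 to 1.13 normalized CPM. Of 10 mesenchymal markers 9 had values, and their untreated sums overlapped, at 726 to 933 normalized CPM in KO and 424 to 759 in Scr, where the first Scr13 library was the 759 and the other 3 lay between 424 and 562. In untreated cells 5 of 9 were already called higher in KO and 2 lower, and the fibronectin gene FN1 stood at 228 ± 57.9 against 86.4 ± 53.4 normalized CPM (adjusted p = 0.000965). After doxorubicin the sum was 894, 718, 995 and 827 normalized CPM in the KO libraries and 511, 444, 652 and 600 in the Scr libraries. The filament gene VIM was the most abundant of them over the 16 libraries. Of the 8 tested after doxorubicin, 5 were called higher in KO and 2 lower. The lower ones were the transcription factor genes TWIST1 (194 ± 18.4 against 303 ± 17.1 normalized CPM, log2 fold change -0.64, adjusted p = 6.68e-06) and PRRX2 (1.48 ± 0.127 against 6.90 ± 0.923, -1.67, adjusted p = 4.69e-05). SOX10 and PRRX1 were not analysed here, and the 4 measured Schwann markers summed to at most 5.87 normalized CPM in any library. The mesenchymal sum was thus higher in every KO library than in every Scr library after doxorubicin, although single markers went both ways, and its part in the results below was not tested.

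The 10 genes covered a wide range of levels. Per kilobase of exon, and averaged over the 16 libraries, XRCC5 stood at 113 normalized CPM per kb, XRCC6 at 49.0 and PRKDC at 46.5. The end-protecting genes followed, TP53BP1 at 17.9 and RIF1 at 10.1 normalized CPM per kb. POLQ at 5.39, LIG4 at 4.39, XRCC4 at 3.02 and DCLRE1C at 1.69 normalized CPM per kb were lower, and NHEJ1 at 0.0621 was the lowest. In this order the ranges over libraries did not overlap between XRCC5 and XRCC6, from PRKDC down to POLQ, or between DCLRE1C and NHEJ1. They overlapped between XRCC6 and PRKDC, with XRCC6 above in 12 of 16 libraries, and between POLQ and LIG4, LIG4 and XRCC4, and XRCC4 and DCLRE1C. The annotation lists 5 pseudogenes named after XRCC6 and 1 named after DCLRE1C. Whether reads of these 2 genes were lost to them was not tested.

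**Figure D1:**
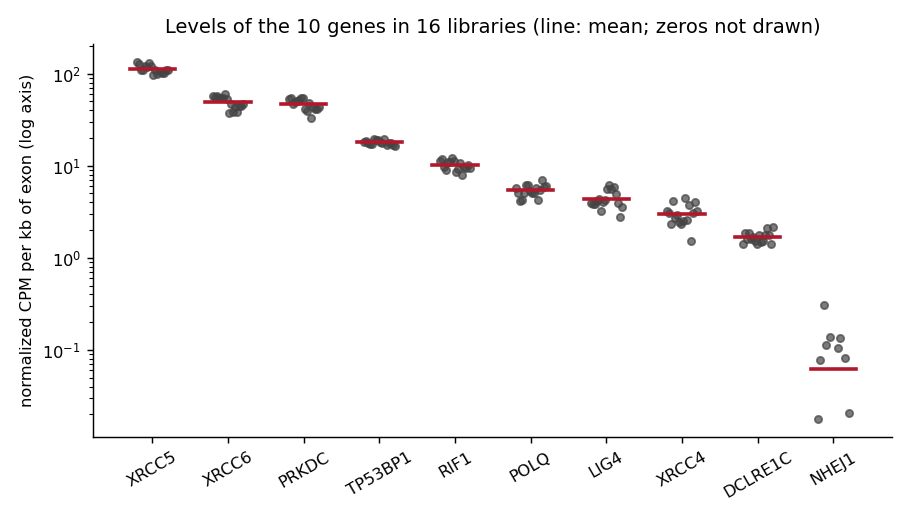
Levels of the 10 end joining genes as normalized CPM per kb of exon on a log axis, with 1 point for each of 16 libraries and a line at the mean. XRCC5 is highest with a mean of 113 and NHEJ1 lowest with a mean of 0.0621, and NHEJ1 libraries at 0 are not drawn.

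The Ku genes and PRKDC were lower after doxorubicin in both genotypes. XRCC6, on chromosome 22 (41621119 to 41664048, plus strand, GRCh38), stood in untreated cells at 188 and 183 normalized CPM in KO11, 187 and 179 in KO28, 179 and 178 in Scr13, and 195 and 173 in Scr16. After doxorubicin it stood at 122 and 152 in KO11, 125 and 144 in KO28, 127 and 146 in Scr13, and 145 and 152 in Scr16. Every treated library lay under every untreated one, as was so for 8.41% of genes tested in KO and 7.97% in Scr. XRCC6 fell by 26.5% in KO (log2 fold change -0.44 ± 0.08, adjusted p = 8.43e-05) and fell by 21.5% in Scr (-0.35 ± 0.08, adjusted p = 0.00207). The fold changes with doxorubicin, here and below, come from limma on log2(normalized CPM + 1) with a term for the clone. Those between KO and Scr come from limma without a clone term, since each clone belongs to 1 genotype. A value after ± on a log2 fold change is the standard error.

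PRKDC, on chromosome 8 (47773108 to 47960183, minus strand), stood without treatment at 812 and 845 normalized CPM in KO11, 715 and 765 in KO28, 775 and 797 in Scr13, and 837 and 834 in Scr16. With doxorubicin it stood at 639 and 601 in KO11, 732 and 514 in KO28, 666 and 641 in Scr13, and 632 and 669 in Scr16. In Scr the treated and untreated libraries did not overlap, and in KO the first treated KO28 library reached into the untreated range. PRKDC fell by 21.2% in KO (log2 fold change -0.34 ± 0.08, adjusted p = 0.00236) and fell by 19.5% in Scr (-0.31 ± 0.08, adjusted p = 0.00771).

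XRCC5, on chromosome 2 (216107464 to 216206303, plus strand), had the smallest of the 3 falls. Its untreated levels were 733 and 702 normalized CPM in KO11, 602 and 590 in KO28, 662 and 641 in Scr13, and 714 and 669 in Scr16. Its treated levels were 533 and 595 in KO11, 545 and 571 in KO28, 549 and 555 in Scr13, and 602 and 595 in Scr16. The groups overlapped in KO, where untreated KO28 was already low, and did not overlap in Scr. XRCC5 fell by 14.2% in KO (log2 fold change -0.22 ± 0.07, adjusted p = 0.0184) and fell by 14.3% in Scr (-0.22 ± 0.07, adjusted p = 0.0245).

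These 3 genes were the members lower past the threshold in each genotype, of 9 tested. Among all genes tested, 7.6% were lower past the threshold in KO and 5.53% in Scr, and 17.8% and 12.6% changed in either direction. The fall of XRCC5 was the least firm of them. In KO its log2 fold change was -0.10 without clone KO11 (adjusted p = 0.608). Its call in KO was also lost, with an adjusted p above 0.05, without 3 single KO11 libraries in turn. In Scr its call was lost, with an adjusted p above 0.05, without 5 single libraries in turn and without either Scr clone. The log2 fold change of XRCC5 in Scr stayed between -0.25 and -0.21 over 29 alternative settings. The calls of PRKDC were lost without KO11 in KO (-0.27, adjusted p = 0.186) and without either Scr clone in Scr (adjusted p = 0.0847 without Scr13 and 0.221 without Scr16), and the call of XRCC6 in Scr was lost without Scr13 (-0.31, adjusted p = 0.130). The fall of XRCC6 in KO stayed past the threshold in each of 29 alternative settings. In bulk RNA a lower level could reflect fewer cells that express a gene or less RNA in each, which cannot be told apart.

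The 3 genes that fell together differ in what lies beside them. PRKDC starts 2 bp from MCM4, a subunit of the replicative helicase, which runs the other way. MCM4 was also lower after doxorubicin, with a log2 fold change of -0.61 ± 0.08 in KO (adjusted p = 8.2e-07) and -0.54 ± 0.08 in Scr (adjusted p = 9.83e-06). XRCC6 starts 23 bp from DESI1 on the other strand, and DESI1 stood at 23.7 ± 3.70 normalized CPM in untreated KO and 23.7 ± 1.51 in treated KO (SD, n = 4), with a log2 fold change of 0.01 ± 0.13 (adjusted p = 0.969). The pair of XRCC6 and DESI1 therefore shares a start region in which 1 gene fell and the other had no call.

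The 250 bases before the RefSeq start of XRCC6 are shown because XRCC6 lies beside a gene without a call (chr22:41621045-41621294, GRCh38.p14, plus strand). The distance of 23 bp to DESI1 is from the start in the GENCODE annotation, 41621119, which lies inside this window. Most of the window is therefore within XRCC6 as GENCODE places it. Capitals mark matches on either strand to the GC box GGGCGG, the CCAAT box CCAAT and the core of the cyclic AMP response element TGACGT, and no base belongs to 2 matches.

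XRCC6: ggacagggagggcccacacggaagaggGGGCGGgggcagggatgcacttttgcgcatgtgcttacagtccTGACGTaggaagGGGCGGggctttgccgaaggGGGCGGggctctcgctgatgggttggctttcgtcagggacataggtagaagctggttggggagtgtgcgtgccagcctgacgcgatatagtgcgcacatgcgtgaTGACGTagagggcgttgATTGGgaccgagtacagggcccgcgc

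The window holds 3 GC boxes, 2 TGACGT cores and 1 CCAAT box. Of 35116 RefSeq windows of 250 bases, 42.6% hold a GC box, 32% a CCAAT box and 7.1% a TGACGT core. Neither E2F form searched, TTTCCCGC or TTTGGCGC, is in it, and 1.39% and 0.55% of all windows hold these. RefSeq windows were found for 8 of the 10 genes and not for XRCC5 and PRKDC, and none of the 14 member windows holds an E2F form.

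**Figure D2:**
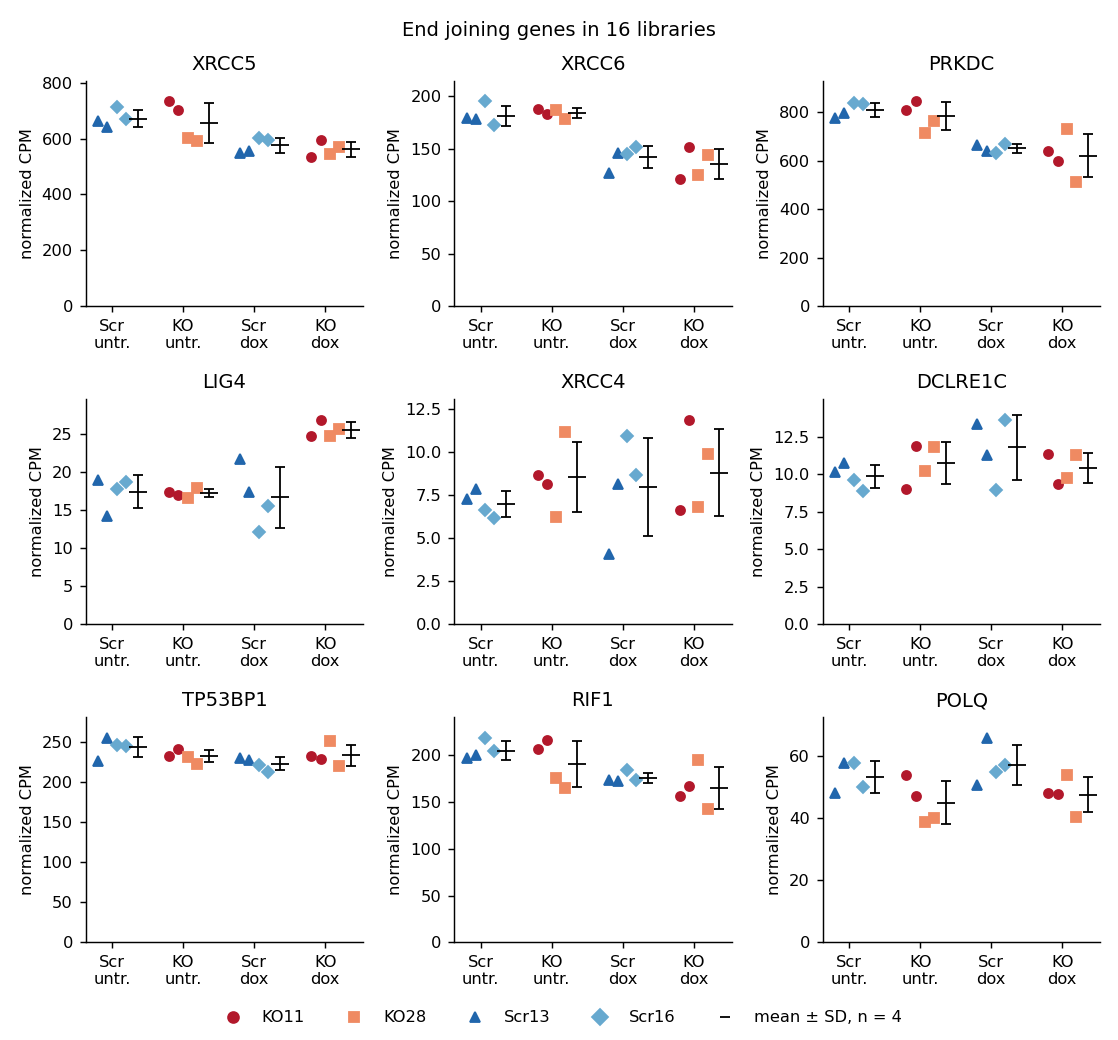
Normalized CPM (vertical axes, from 0) of the 9 tested end joining genes in each library, with 4 libraries per group, marker and colour by clone, and the mean ± SD beside them. XRCC6 in treated libraries lies between 122 and 152 against 173 to 195 in untreated ones, and LIG4 in treated KO libraries lies between 24.8 and 27.0.

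LIG4, the ligase of the final step, was called higher with doxorubicin in KO and had no call in Scr. The test between the genotypes, given below, did not pass. LIG4 lies on chromosome 13 (108207439 to 108218368, minus strand). In untreated cells its level was 17.4 and 17.0 normalized CPM in KO11, 16.6 and 17.9 in KO28, 19.0 and 14.2 in Scr13, and 17.9 and 18.7 in Scr16. After doxorubicin it was 24.8 and 27.0 in KO11, 24.8 and 25.7 in KO28, 21.8 and 17.3 in Scr13, and 12.2 and 15.5 in Scr16. All 4 treated KO libraries lay above all other 12 libraries, as was so for 2.61% of genes tested. The libraries held 128 to 483 LIG4 reads each.

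LIG4 rose 1.45-fold with doxorubicin in KO (log2 fold change 0.54 ± 0.15, adjusted p = 0.0103), where 10.2% of all genes tested were higher past the threshold. The call was lost when either KO clone was left out, at 0.52 without KO11 (adjusted p = 0.198) and 0.56 without KO28 (adjusted p = 0.120). In Scr its log2 fold change was -0.08 ± 0.15 (adjusted p = 0.798), and the 2 Scr clones differed in sign. Within clones the log2 change with doxorubicin was 0.56 in KO11, 0.52 in KO28, 0.23 in Scr13 and -0.39 in Scr16. The test of the difference between genotypes, the interaction, gave 0.62 ± 0.21 for LIG4, with an unadjusted p of 0.00635 and an adjusted p of 0.397. Only 4 genes of 15325 tested passed that test (0.0261%), and no end joining gene did. A different response of LIG4 in the 2 genotypes is therefore not established over all genes.

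After doxorubicin LIG4 was 1.53-fold higher in KO than in Scr (25.6 ± 1.03 against 16.7 ± 4.02 normalized CPM, SD, n = 4, log2 fold change 0.61 ± 0.16, adjusted p = 0.0148). It was the only end joining gene of 9 tested past the threshold in this comparison, in which 8.69% of all genes were called and 4.52% were called higher. The KO and Scr libraries of LIG4 did not overlap, as was so for 13.2% of all genes tested. The two-sided exact permutation test on LIG4 alone gave p = 0.0286, the smallest that 4 libraries against 4 allow. In untreated cells LIG4 stood at 17.3 ± 0.557 normalized CPM in KO and 17.5 ± 2.21 in Scr (log2 fold change -0.01 ± 0.14, adjusted p = 0.991).

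The LIG4 difference after doxorubicin rested in part on Scr16. Without clone Scr16 the log2 fold change was 0.38 (adjusted p = 0.145), and without clone Scr13 it was 0.85 (adjusted p = 0.00207). Without KO11 it was 0.60 (adjusted p = 0.182) and without KO28 0.63 (adjusted p = 0.135). With reads summed per clone, and so 2 against 2, it was 0.59 (adjusted p = 0.0474). The call was also lost without the second treated KO11 library (adjusted p = 0.0515), with no filter on low genes (adjusted p = 0.0649) and with Bonferroni adjustment.

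The start of LIG4 is shown because it, too, lies beside a gene on the other strand. RefSeq lists 5 starts of LIG4, and 42 bases separate the outermost from the start of ABHD13 on the other strand (chr13:108218350-108218391, GRCh38.p14, minus strand). In the GENCODE annotation LIG4 starts at 108218368, inside these 42 bases. The 250 bases before the next LIG4 start lie within the transcription unit of the longest form (chr13:108215537-108215786, minus strand). Capitals mark the same motifs as above.

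LIG4, outermost start: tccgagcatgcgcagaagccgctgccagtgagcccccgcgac

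LIG4, second start: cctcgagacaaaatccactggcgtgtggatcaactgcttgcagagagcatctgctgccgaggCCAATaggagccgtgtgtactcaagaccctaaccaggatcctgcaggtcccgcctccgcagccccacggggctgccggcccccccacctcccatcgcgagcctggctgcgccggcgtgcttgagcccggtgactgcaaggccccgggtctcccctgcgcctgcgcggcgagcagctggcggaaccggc

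The 42 bases hold no match and the second window holds 1 CCAAT box. The windows of 250 bases before the other 3 starts, not printed because they cross or follow the second start, hold 2 TGACGT cores each, as the XRCC6 window does. Of these, 2 overlap and hold 1 GC box each, and the innermost holds 1 CCAAT box. Each LIG4 window thus holds fewer GC boxes than the 3 of the XRCC6 window, and 3 of the 5 LIG4 starts match it in TGACGT cores. Which of the 5 starts the cells used was not tested. ABHD13, the hydrolase gene that shares the outermost start region, had a log2 fold change with doxorubicin of 0.56 ± 0.13 in KO (adjusted p = 0.00231) and 0.11 ± 0.13 in Scr (adjusted p = 0.642). Its level was 20.7 ± 2.81 normalized CPM in untreated KO and 31.0 ± 3.46 in treated KO, and 25.5 ± 0.958 and 27.9 ± 4.73 in Scr (SD, n = 4). Between KO and Scr after doxorubicin ABHD13 did not pass the threshold (log2 fold change 0.15 ± 0.13, adjusted p = 0.59).

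**Figure D3:**
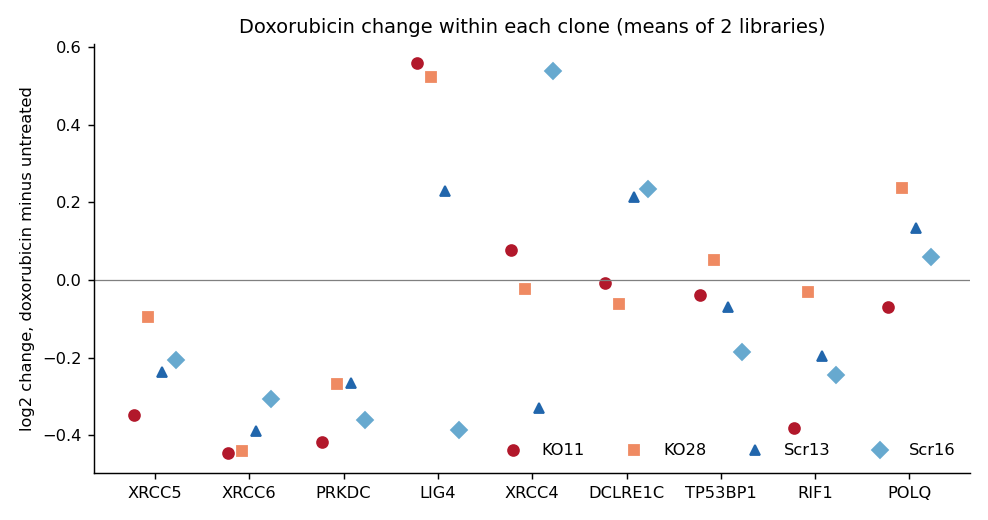
Change of each tested end joining gene with doxorubicin within a clone, as the difference of mean log2(normalized CPM + 1) of 2 treated and 2 untreated libraries. LIG4 is at 0.56 and 0.52 in the KO clones and at 0.23 and -0.39 in the Scr clones, while XRCC6 and PRKDC are under 0 in all 4.

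The genes most like LIG4 over the 16 libraries, by Pearson r of log2(normalized CPM + 1) against 15324 other genes, were GPR37 (r = 0.919), CEL (0.885), TP53I3 (0.875), RAB1A (0.861) and HSDL2 (0.859). GPR37 encodes an orphan receptor of neural cells, CEL a lipase and RAB1A a small GTPase of secretory traffic. TP53I3, a p53 target that encodes an oxidoreductase, stood at 16.8 ± 2.95 normalized CPM in untreated KO and 66.3 ± 9.24 in treated KO, and at 16.6 ± 1.67 and 20.6 ± 5.18 in Scr (SD, n = 4). GPR37 and CEL were under 6 normalized CPM on average in each group. All of these share the libraries and their depth with LIG4, so the r values are a description.

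XRCC4, the partner of the ligase, was not called in any comparison. It lies on chromosome 5 (83077498 to 83353787, plus strand) and had 69 to 189 reads in a library. Untreated levels were 8.71 and 8.13 normalized CPM in KO11, 6.24 and 11.2 in KO28, 7.28 and 7.89 in Scr13, and 6.63 and 6.19 in Scr16. Treated levels were 6.65 and 11.9 in KO11, 6.80 and 9.92 in KO28, 4.10 and 8.14 in Scr13, and 10.9 and 8.70 in Scr16. Replicates of the same clone lay far apart in treated Scr13, treated KO11 and untreated KO28, and the 4 groups overlapped. The 95% interval of its log2 change with doxorubicin ran from -0.46 to 0.51 in KO and from -0.38 to 0.59 in Scr.

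DCLRE1C, the Artemis gene on chromosome 10 (14897359 to 14954432, minus strand), varied between 8.86 and 13.6 normalized CPM over the 16 libraries and its groups overlapped. Its mean was 10.7 ± 1.39 in untreated KO, 9.84 ± 0.786 in untreated Scr, 10.4 ± 1.03 in treated KO and 11.8 ± 2.17 in treated Scr (SD, n = 4). The log2 change with doxorubicin was -0.03 ± 0.17 in KO (adjusted p = 0.928) and 0.23 ± 0.17 in Scr (adjusted p = 0.452). SUV39H2, a histone methyltransferase gene on the other strand that shares 2.51% of the exon bases of DCLRE1C, was lower with doxorubicin in KO (-0.45 ± 0.13, adjusted p = 0.0134) and Scr (-0.45 ± 0.13, adjusted p = 0.0188).

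NHEJ1, the XLF gene on chromosome 2 (219075317 to 219160865, minus strand), had 0 to 13 reads in a library and 51 in all, with 0 reads in 7 of 16 libraries. Its highest value was 0.948 normalized CPM, so it was not tested, and no difference between groups was detectable at this depth. In GENCODE 29 another gene on the same strand, AC068946.1, shares 65.4% of the exon bases of NHEJ1. Whether reads in the shared part were left out when genes were counted is not given in the sources used here, so the level of NHEJ1 is uncertain.

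The end-protecting genes were not called in any comparison. TP53BP1, on chromosome 15 (43403061 to 43510728, minus strand), was the steadiest of the 10, and its highest library (255 normalized CPM) was 1.2 times its lowest (212). Its mean was 232 ± 7.50 normalized CPM in untreated KO, 243 ± 12.5 in untreated Scr, 233 ± 13.2 in treated KO and 222 ± 8.01 in treated Scr (SD, n = 4), and the KO and Scr groups overlapped in both treatments. The 95% interval of its log2 change with doxorubicin was -0.13 to 0.14 in KO and -0.26 to 0.01 in Scr, so a change as large as that of XRCC6 in KO lies outside both. TUBGCP4, a gamma-tubulin complex gene on the other strand, shares 28.7% of the exon bases of TP53BP1, and its level of 89.2 to 111 normalized CPM on average in a group is a limit where strand was not used in counting. TUBGCP4 was lower with doxorubicin in KO (log2 fold change -0.31 ± 0.08, adjusted p = 0.00549) and was not called in Scr (-0.13 ± 0.08, adjusted p = 0.321).

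RIF1, on chromosome 2 (151409883 to 151508013, plus strand), was lower with doxorubicin without passing the threshold. In KO11 it went from 207 and 216 to 156 and 168 normalized CPM, and in KO28 from 176 and 165 to 195 and 142. In Scr13 it went from 197 and 200 to 174 and 173, and in Scr16 from 219 and 205 to 184 and 173. The treated Scr libraries all lay under the untreated ones, while the KO28 libraries crossed. The log2 fold change was -0.21 ± 0.08 in KO (adjusted p = 0.0858) and -0.22 ± 0.08 in Scr (adjusted p = 0.0809). These changes were close in size to those of XRCC5. In KO the change was -0.38 without clone KO28 (adjusted p = 0.00673) and -0.032 without clone KO11 (adjusted p = 0.916). Without the first treated KO28 library it was -0.33 (adjusted p = 0.00114), and without the second untreated KO28 library -0.26 (adjusted p = 0.0433). In Scr the change passed without clone KO28 (adjusted p = 0.0189) or its first treated library (adjusted p = 0.0192), and with scaling by library size alone RIF1 passed in both genotypes (adjusted p = 0.0458 in KO and 0.0492 in Scr).

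POLQ, on chromosome 3 (121431427 to 121546641, minus strand), was at 53.8 and 47.0 normalized CPM in untreated KO11, 38.8 and 40.0 in KO28, 48.0 and 57.6 in Scr13, and 57.7 and 49.8 in Scr16. After doxorubicin it was at 47.9 and 47.8 in KO11, 54.0 and 40.4 in KO28, 50.7 and 65.9 in Scr13, and 54.8 and 57.0 in Scr16. The KO means were the lower ones in both treatments, and single libraries overlapped. The log2 difference of KO from Scr was -0.25 ± 0.11 untreated (adjusted p = 0.294, exact permutation p = 0.114) and -0.26 ± 0.11 after doxorubicin (adjusted p = 0.162, exact permutation p = 0.0571). Untreated, the difference was -0.42 without clone KO11 (adjusted p = 0.0426) and -0.08 without clone KO28. With doxorubicin the log2 change of POLQ was 0.08 ± 0.11 in KO and 0.10 ± 0.11 in Scr, and neither passed.

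Between KO and Scr, the higher LIG4 after doxorubicin was the only call among these genes. In untreated cells none of the 9 tested genes was called between KO and Scr, where 4.84% of all genes tested were, a share at which no call among 9 says nothing particular of them, and 1 of the 9, POLQ, had an unadjusted p under 0.05. Their log2 differences ran from -0.25 for POLQ to 0.24 for XRCC4, with a median of -0.04 beside -0.01 over all genes. After doxorubicin the median of the 9 was -0.07 beside 0.01 over all genes. The 95% interval of the KO to Scr ratio after doxorubicin was 0.88 to 1.08 for XRCC5 and 0.841 to 1.08 for XRCC6, and for PRKDC it was 0.833 to 1.07. With doxorubicin the median log2 change of the 9 was -0.03 in KO and -0.13 in Scr, beside 0.02 and -0.01 over all genes. The comparisons share libraries, so these values stand side by side and are not independent.

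**Figure D4:**
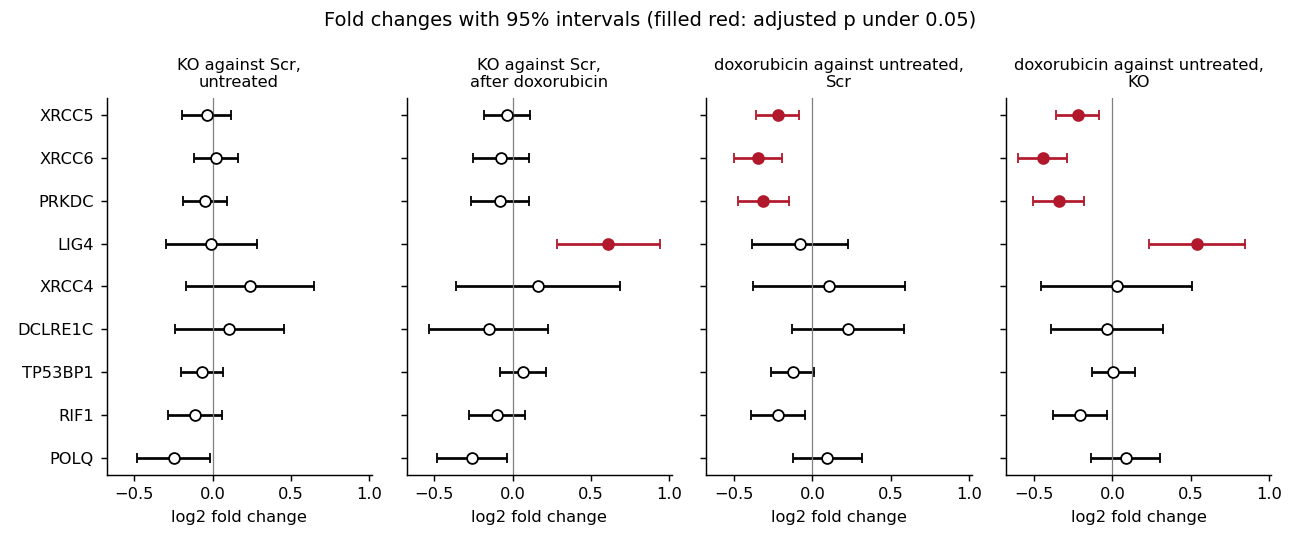
Log2 fold changes with 95% intervals of the 9 tested end joining genes in 4 comparisons, where filled red points have an adjusted p under 0.05. LIG4 is called higher in KO after doxorubicin and with doxorubicin in KO, and XRCC5, XRCC6 and PRKDC are called lower with doxorubicin in both genotypes.

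Other genes of the same processes were read from lists chosen by function. Of 13 measured accessory factors of end joining, such as PAXX and POLL, all passed the filter and none was called between KO and Scr in either treatment. With doxorubicin 7.6% of all genes tested were called lower in KO and 5.53% in Scr. Of the 13 factors, 1 was called lower in each genotype. It was SETMAR in Scr, a histone methyltransferase fused to a transposase domain (16.7 ± 2.36 against 24.7 ± 2.65 normalized CPM, adjusted p = 0.0116), and TDP1 in KO, which removes protein adducts from DNA ends (31.2 ± 2.91 against 42.1 ± 2.06, adjusted p = 0.00307).

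In the pathway of TP53BP1, 13 of 14 genes were tested, and 1 was called between KO and Scr in each treatment. Of all genes tested, 4.84% were called without treatment and 8.69% after doxorubicin. A single call among 13 therefore says nothing particular of the pathway. PAXIP1, the adaptor protein PTIP that binds 53BP1, was called higher in KO than in Scr without treatment (51.5 ± 2.53 against 38.4 ± 1.85 normalized CPM, log2 fold change 0.42, adjusted p = 0.00892) and after doxorubicin (45.1 ± 2.82 against 34.4 ± 5.69, 0.39, adjusted p = 0.0456). None of the 13 changed past the threshold with doxorubicin in Scr. In KO the telomere and end-fill-in gene CTC1 was called higher, at 47.3 ± 3.99 against 38.1 ± 2.50 normalized CPM (adjusted p = 0.0412). Of all genes tested, 10.2% were called higher with doxorubicin in KO.

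Genes of break sensing and resection also had calls with doxorubicin. Of 12 tested, 7 were lower in KO and 4 in Scr and none was higher. Their median log2 change was -0.34 in KO and -0.25 in Scr. Among all genes tested, 7.6% were lower past the threshold in KO and 5.53% in Scr. Whether the lists differ in their share of calls was not tested. NBN, a subunit of the break-sensing MRE11 complex, was at 21.0 ± 2.42 against 33.0 ± 6.16 normalized CPM in KO (log2 fold change -0.62, adjusted p = 0.00143) and at 22.3 ± 4.82 against 35.9 ± 2.05 in Scr (-0.69, adjusted p = 0.000744). BRCA1, which favours recombination, fell by 0.57 on the log2 scale in KO (adjusted p = 8.22e-06) and fell by 0.37 in Scr (adjusted p = 0.00283). Between KO and Scr none of the 11 tested in either treatment was called. BRCA1 stood at 90.5 ± 4.63 normalized CPM in treated KO and 110 ± 12.2 in treated Scr (SD, n = 4). The authors' paper, by its own edgeR comparison, reports BRCA1 RNA as reduced in KO after doxorubicin, and the protein too.

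Between KO and Scr after doxorubicin, 8.69% of all genes tested were called in either direction and 4.52% were called higher. In the alternative pathway 2 of 8 genes were called lower in KO in this comparison. They were PARP1, the break-sensing ADP-ribose polymerase (464 ± 31.3 against 555 ± 45.9 normalized CPM, log2 fold change -0.26, adjusted p = 0.0391), and the flap endonuclease gene FEN1 (88.5 ± 8.63 against 107 ± 3.32, -0.28, adjusted p = 0.0401). Without treatment none of the 8 was called. PARP1 was lower with doxorubicin in both genotypes, with a log2 fold change of -0.52 in KO (adjusted p = 2.7e-06) and -0.33 in Scr (adjusted p = 0.00173).

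Cell cycle and p53 genes moved in the same libraries. Of 14 S phase genes, 10 were lower with doxorubicin in KO, and 11 were lower and 1, CDT1, higher in Scr. The helicase subunit MCM6 had a log2 fold change of -1.02 in KO (adjusted p = 1.65e-11) and -0.71 in Scr (adjusted p = 4.81e-08). Of 12 genes of G2 and M phase, 11 were lower with doxorubicin in KO and none was called in Scr, and after doxorubicin 9 were lower in KO than in Scr. PLK1, a mitotic kinase, was the only gene of these lists to pass the interaction test (log2 difference -0.73 ± 0.13, adjusted p = 0.0294).

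All 12 p53 target genes rose with doxorubicin in both genotypes, and 10 of them were higher in KO than in Scr after doxorubicin and 6 without treatment. CDKN1A, which encodes the cell cycle inhibitor p21, stood at 136 ± 16.5 normalized CPM in untreated KO and 57.0 ± 15.2 in untreated Scr, and at 736 ± 45.3 and 337 ± 25.1 after doxorubicin (SD, n = 4). The summed level of the 12 was 2359 to 2691 normalized CPM in treated KO libraries and 1251 to 1571 in treated Scr libraries, which did not overlap. In untreated libraries it was 713 to 758 in KO and 455 to 571 in Scr. Mean LIG4 in these groups was 25.6 normalized CPM in treated KO, 16.7 in treated Scr, 17.3 in untreated KO and 17.5 in untreated Scr. The summed level of the 14 S phase genes was 2018 to 2843 normalized CPM with doxorubicin and 2928 to 3418 without. The part of the cell cycle and of p53 in the end joining genes was not tested.

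**Figure D5:**
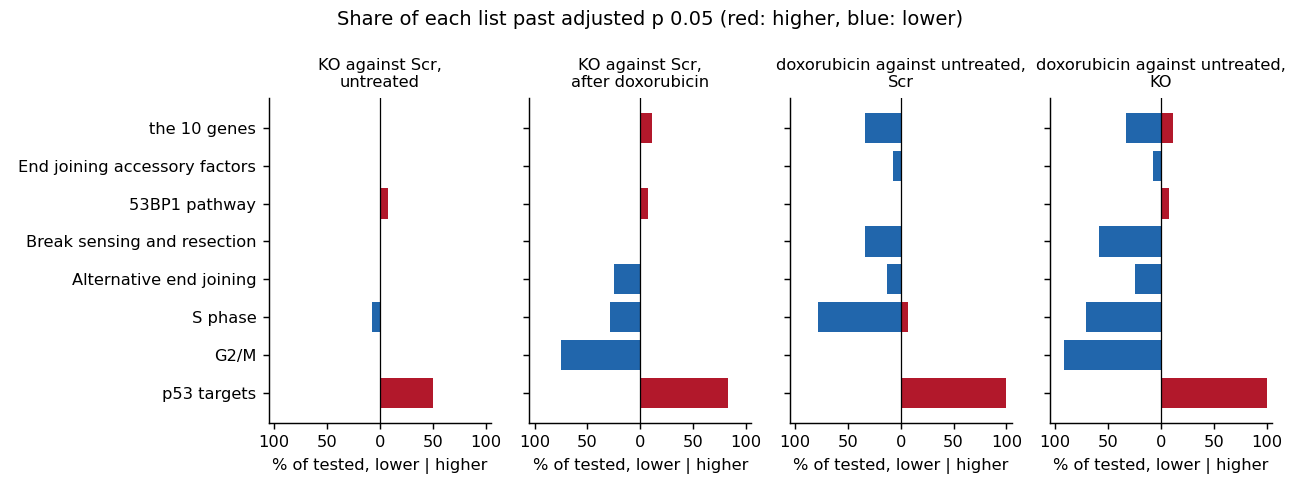
Share of the tested genes of each list past an adjusted p of 0.05, lower to the left and higher to the right, in 4 comparisons. The end joining genes have 3 of 9 lower with doxorubicin in both genotypes, and 12 of 12 p53 targets are higher.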

How the data were processed

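Per the submitters' processing notes, HISAT2 2.1.0, HTSeq, edgeR and the build GRCh38 were used, and strand use in counting is not given in the sources used here. The library values are a signal deposited by the authors as normalized CPM in 2 tables of 8 libraries. All values were whole multiples of 1 read (tolerance 0.001 reads), so whole reads were recovered for 100% of values. The log2 fold changes, p-values, q-values and ranks that the authors deposited hold their own edgeR comparison of KO with Scr and were not used. The factors (0.974 to 1.03) matched TMM over 16 libraries more closely (largest difference 1.03%) than TMM of each table (1.78%), so both tables were used together.

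KO and Scr were compared within a treatment on log2(normalized CPM + 1) by limma 3.58.1 (R 4.3.3), with a trend of the variance on abundance. The filter was 1 normalized CPM in 4 of 8 libraries, with Benjamini-Hochberg adjustment over all genes and a threshold of 0.05. Doxorubicin effects and the interaction used 16 libraries, the same minimum in 4 of them, and the clone as a fixed term. Exact permutation tests, 18 in all, used scipy. On simulated data with known changes the fits were checked. Alternatives were edgeR 4.0.16 and DESeq2 1.42.0 on recovered reads, other adjustments, filters, pseudocounts and scaling, a replicate block, reads summed per clone, no clone term, each library or clone left out, and the clone as a random block, which was chosen after seeing the data. Gene positions and exon lengths are from GENCODE 29, and windows from RefSeq (GRCh38.p14). Floors cover counting error only.

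The end joining genes and the lists were chosen with earlier results of these data known. Named are TRPM2, the 10 genes, list genes past the threshold (at most 6 per list between KO and Scr or in the interaction, at most 4 per direction with doxorubicin, by adjusted p), of which the text gives a part, and the 5 genes most like LIG4. Neighbouring genes were added for their position.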

Additional observations from a re-analysis of the deposited data

Results flagged for a closer look

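In 1 of 40 sets of 4 libraries examined, 1 library stood far from the others of its group. RIF1 was at 183.93 normalized CPM in the first treated Scr16 library and between 172.55 and 174.03 in the other 3 treated Scr libraries. Its gap to the nearest of them was 0.87 of the whole range, above the critical value of Dixon's test for 4 values. Chance alone marks about 1 in 20 such sets. The same library was the shallowest, with 10481177 reads on genes and 1935 RIF1 reads.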

How the results depend on the processing

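The direction of each of the 8 called values of XRCC5, XRCC6, PRKDC and LIG4 held in every alternative run, and only XRCC6 with doxorubicin in KO also stayed past the threshold in all of them. Leaving out a clone leaves 1 on that side, whose spread is taken from the others. XRCC4, DCLRE1C and NHEJ1 had the fewest reads, and for NHEJ1 low expression and reads lost to an overlapping gene cannot be told apart. The calls of end joining genes changed as follows. Between KO and Scr after doxorubicin the 1 call (LIG4) became 0 with Bonferroni adjustment, with no filter, and without clone KO11, KO28 or Scr16, and ranged from 0 to 1 with single libraries left out. Between untreated KO and Scr, POLQ made 1 call without clone KO11. With doxorubicin in Scr the 3 calls became 0 with Bonferroni adjustment or without clone Scr13, and 1 with no filter or without clone Scr16. In KO the 4 became 1 with Bonferroni adjustment or without clone KO11, and without clone KO28 the count stayed at 4 with LIG4 lost (adjusted p = 0.120) and RIF1 gained (-0.38, adjusted p = 0.00673).

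Over all genes, the 695 calls in untreated cells became 166 with Bonferroni adjustment, 424 with at least 5 normalized CPM in every library, 368 with no filter, 330 without clone Scr13 and 327 without Scr16. The 1266 after doxorubicin became 253 with Bonferroni adjustment, 510 without KO11 and 575 without KO28, and ranged from 814 to 1314 with single libraries left out. The 1935 with doxorubicin in Scr became 302 with Bonferroni adjustment, 569 without Scr13 and 908 without Scr16, and the 2727 in KO became 473, 934 without KO11 and 1413 without KO28. The 4 interaction calls became 1 with Bonferroni adjustment, 53 with DESeq2, 7 with at least 5 normalized CPM in every library, 10 with edgeR, 2 with no filter, 0 without KO11, 1 without KO28, 10 without Scr13 and 1 without Scr16, and ranged from 1 to 19 with single libraries left out. An unadjusted p under 0.05 was seen for 1274 genes in that test.

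Equal replicate numbers did not deviate together (correlations from -0.10 to 0.12), so they do not pair the libraries. The replicate block gave 22 interaction calls and changed no call of an end joining gene.

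Values near 0 changed sign, and none was a call. Without KO28, KO against Scr in untreated cells was 0.096 for XRCC5, 0.031 for PRKDC and 0.042 for RIF1, and the change with doxorubicin in KO was -0.039 for TP53BP1 and -0.070 for POLQ. Without Scr16, XRCC5 was 0.0053 untreated and 0.021 after doxorubicin, LIG4 was 0.065 untreated, and the change in Scr was 0.23 for LIG4 and -0.33 for XRCC4. XRCC4 was -0.17 after doxorubicin without Scr13, and its change in KO was -0.023 without KO11 and -0.0014 with library size alone. The change of TP53BP1 in KO was -0.027 with library size alone, -0.0082 with edgeR and -0.0044 with DESeq2. With single libraries left out, untreated XRCC5 ran from -0.092 to 0.012 and LIG4 from -0.10 to 0.034, and after doxorubicin PRKDC ran from -0.16 to 0.0064 and XRCC4 from -0.089 to 0.32. The change in Scr ran from -0.22 to 0.0475 for LIG4 and from -0.042 to 0.36 for XRCC4, and in KO from -0.13 to 0.19 for XRCC4, -0.042 to 0.035 for TP53BP1, -0.11 to 0.033 for DCLRE1C and -0.029 to 0.15 for POLQ. The cause of these changes was not tested.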
